A study of Mus musculus with 6 samples.

Results

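The genes described here encode the proteins of the cytosolic ribosome, read in the liver of mice with and without an altered Lncenc1 gene, which gives a long non-coding RNA. They were taken by name: every protein-coding row whose symbol starts with Rpl or Rps followed by a digit, together with Rplp0, Rplp1, Rplp2 and Rpsa, and without the Rps6k kinases. This gave 89 of 24034 genes. Of these, 77 are subunits proper (46 of the large and 31 of the small subunit), 6 are paralogues of a subunit gene (Rpl22l1, Rpl36al, Rpl39l, Rpl3l, Rps27l and Rps27rt), 4 carry pseudogene names although annotated as coding, and 2, Rps19bp1 and Rpl7l1, share the prefix without being subunits. Total RNA of whole liver was sequenced in 6 libraries, 3 from wild-type mice (WT, lncenc1wt/wt) and 3 from homozygotes (HO, lncenc13A/3A), all C57BL/6 and 25 weeks old, with no treatment named. The labels give neither the substrain nor what the altered allele changes, and nothing states that each library is a different animal. The p-values therefore reflect only how far these samples vary, which may be technical. Lncenc1 RNA itself was not analysed here, and the genotypes rest on the labels. Hepatocyte markers (Alb, Apoa1, Ttr, Cyp2e1, Cps1 and Pck1) summed to 48168, 50940 and 50780 FPKM in WT and to 42781, 46584 and 46651 FPKM in HO, where FPKM are fragments per kilobase of transcript, scaled to the mapped fragments of the library.

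The ribosome joins a small subunit, which reads the messenger RNA, to a large subunit, which forms peptide bonds and guides the new chain out through a tunnel. Its proteins are made in matched amounts, and most of their messengers begin with a C followed by a run of pyrimidines, the terminal oligopyrimidine (TOP) motif, through which mTORC1 controls their translation. In mammals each subunit gene has left many processed pseudogenes, copies of the messenger that are nearly identical to the parent gene.

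Promoter sequence was matched for 65 of the genes in the RefSeq table of build GRCm38.p6. The 4 below show pyrimidine runs near the annotated start, in the paralogue that passed the test between genotypes, in its parent gene, in the S6 kinase substrate Rps6, and in Rpl7a, one of the genes with a poorly repeatable level. Each runs 5′ to 3′ on the gene's strand from 60 bases before the annotated start to 15 after it. Capitals mark the longest pyrimidine run of at least 8 bases starting with C, and the sequence CGGAAG where it occurs.
Rpl22l1: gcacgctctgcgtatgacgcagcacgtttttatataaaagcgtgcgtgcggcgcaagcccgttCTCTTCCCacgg
Rpl22: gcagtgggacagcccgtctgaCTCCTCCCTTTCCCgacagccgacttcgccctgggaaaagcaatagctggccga
Rps6: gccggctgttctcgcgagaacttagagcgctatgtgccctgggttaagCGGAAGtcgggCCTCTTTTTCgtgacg
Rpl7a: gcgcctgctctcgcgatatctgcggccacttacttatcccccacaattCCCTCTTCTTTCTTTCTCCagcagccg
The windows lie at chr3:28805448-28805522 (+) for Rpl22l1, chr4:152325666-152325740 (+) for Rpl22, chr4:86857353-86857427 (-) for Rps6 and chr2:26910747-26910821 (+) for Rpl7a. The start in RefSeq lies downstream of that in GENCODE by 72 bases for Rpl22l1, 45 for Rps6 and 43 for Rpl7a. The marked runs of these genes therefore lie inside the genes as GENCODE annotates them, not at their starts. For Rpl22 the RefSeq start lies 16 bases upstream. Counted from the RefSeq start, the marked runs begin at base 3 for Rpl22l1, -39 for Rpl22, -1 for Rps6 and -12 for Rpl7a. The Rpl22 run is 14 bases long, so it ends before that start and lies outside the messenger annotated there.

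A pyrimidine run of this kind lay within 50 bases on either side of the annotated start in 46 of 57 matched subunit promoters (80.7%), against 27.8% of 12171 protein-coding genes of the table. Read on the opposite strand, the run was found in 21.1% of subunit promoters and 31.0% of all. CTTCCG or its reverse CGGAAG, the core of the sites bound by ETS factors such as GABP, was present on either strand in the 300 bases of 40 subunit promoters (70.2%), against 28.0% of all. A match describes letters and not a site in use. The log2 difference between HO and WT had a median of -0.11 over the 46 subunit genes with a run and of -0.02 over the 11 without. For the second sequence these medians were -0.10 in 40 genes and -0.09 in 17. The median of all tested genes was -0.09. Whether genes with and without a match differ was not tested.

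The 77 subunit genes were expressed in every library, but not at one level. Their mean FPKM over the 6 libraries ran from 22.1 for Rps15a to 437 for Rpl41, a 19.8-fold range, with a median of 139.8 and with 10% of the genes below 59.8 and 10% above 234. The highest were Rpl41, the shortest protein of the large subunit, Rplp1, an acidic protein of the stalk that recruits translation factors, Rps29, Rps15 and Rpl26. Genes with a longer annotated exonic length had lower FPKM (Spearman's rho -0.47 across 77 genes, which share libraries and whose FPKM is divided by a length). Annotated exonic length ran from 383 to 6270 bases with a median of 1781. Since retained introns and long non-coding isoforms enter that length, levels were not read as protein output. The order of the genes was nearly the same in both genotypes (rho 0.982 between the WT and HO means).

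**Figure D1:**
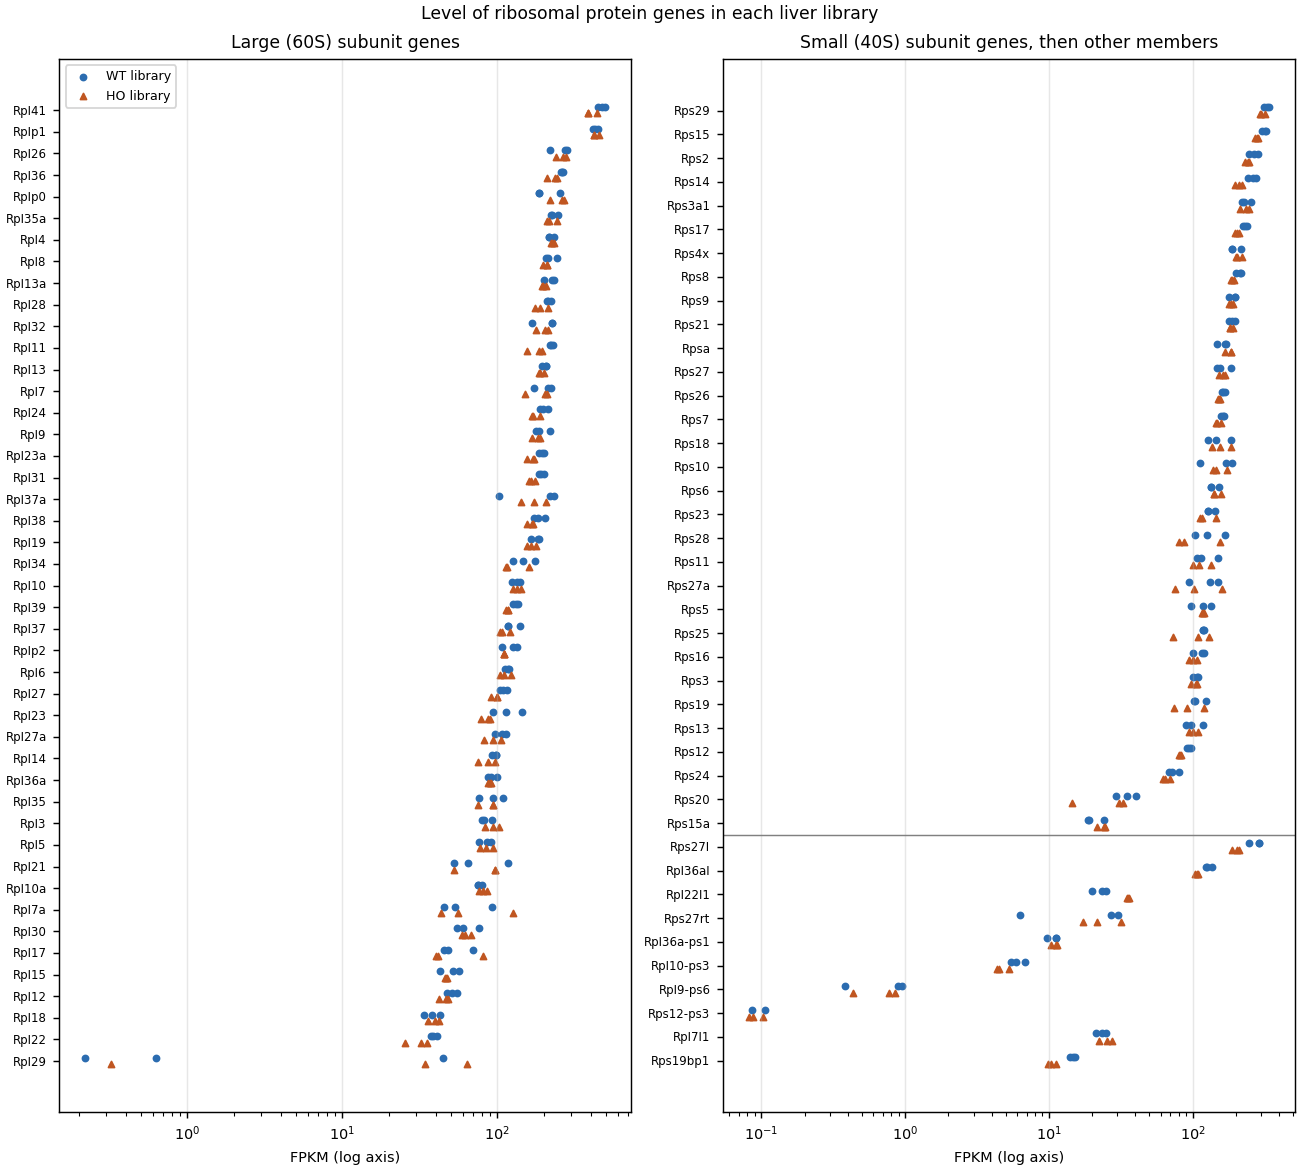
FPKM of the members in each library, 1 left out, on a log axis, with WT libraries and HO libraries marked separately. Most subunits lie between 59.8 and 234 FPKM, and the libraries of Rpl29 are spread from 0.22 to 63.7 FPKM. Values of 0 cannot be drawn on this axis.

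**Figure D2:**
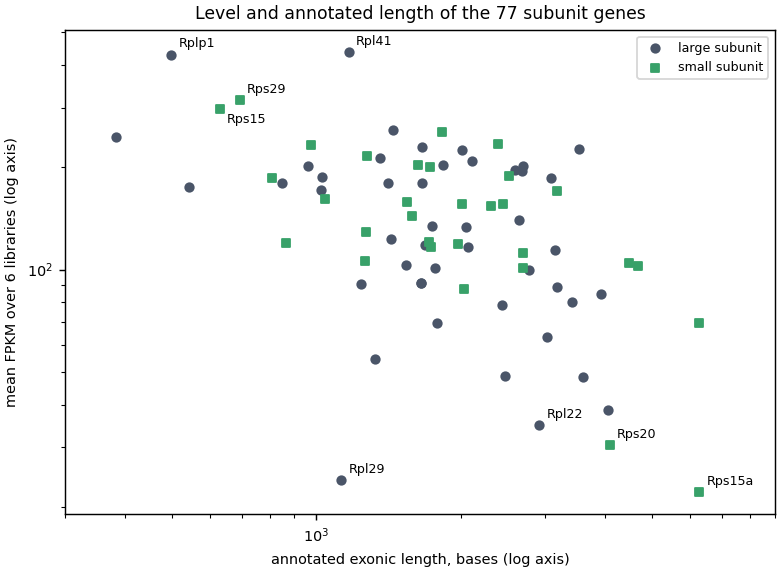
Mean FPKM over 6 libraries against annotated exonic length in bases, both on log axes, with 1 point for each of 77 subunit genes. Longer genes lie lower, with a Spearman's rho of -0.47.

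As a whole the genes differed little between genotypes, and in the direction of all genes. They took 2.43, 2.54 and 2.48% of the summed FPKM in the WT libraries and 2.32, 2.37 and 2.28% in the HO libraries. All 3 HO values were below all 3 WT values. The means were 2.49 ± 0.0562% (SD, n = 3) in WT and 2.32 ± 0.0467% (SD, n = 3) in HO, a difference of -0.166 percentage points (exact two-sided permutation test, p = 0.1, the smallest 3 against 3 can give, and 0.2 after Benjamini-Hochberg adjustment over the 2 library values tested). The summed FPKM of Rpl over Rps names was 1.43, 1.39 and 1.36 in WT and 1.43, 1.40 and 1.42 in HO, so the groups overlapped (difference 0.024, exact two-sided permutation p = 0.3, adjusted 0.3). The hepatocyte marker sums above were also lower in every HO library, although 2 of the 6 markers were higher in HO. Their most abundant gene averaged 30198 FPKM. The part of these markers in the difference in share was not tested. Fewer cells of a type and less RNA per cell cannot be told apart in whole liver.

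Gene by gene, differences were tested with limma on log2(FPKM + 0.5) over 13250 genes with a mean of at least 0.5 FPKM, which 86 of the 89 passed. Rpl3l and Rpl39l, paralogues best known from muscle and testis, were listed at 0 in every library, and Rps12-ps3 stayed below the filter. At an adjusted p of 0.05, 1 of the 86 rose in HO (Rpl22l1) and 0 fell, where 0.325% of all tested genes were called higher, 0.815% lower and 1.14% in either direction. At an unadjusted p under 0.05, 2 of the 86 were higher (2.33%, against 5.01% of all genes) and 14 were lower (16.3%, against 16.5%), together 18.6% against 21.5%. WT and HO libraries did not overlap in 24 members, 27.9% of them, as in 27.9% of all genes. Of these, 2 were higher in HO (2.33%, against 6.42% of all genes) and 22 lower (25.6%, against 21.4%). The lower and combined shares are near the background, and the shares higher in HO, of 2 members each, are below it. The median log2 difference was -0.10 (quartiles -0.18 and 0.01), and that of all tested genes was -0.09. Of the 86, 63 had a negative value (73.3%, against 64.6% of all genes). The median was -0.10 for both the large and the small subunit. The 95% interval lay inside a 1.5-fold difference in either direction for 66 of the 86 genes and inside 2-fold for 81. Of all 13250 tested genes, 7094 lay inside 1.5-fold and 11430 inside 2-fold. The median SE was 0.099 for the members and 0.151 for all genes. With the libraries scaled by median of ratios the members' median was 0.0021 and that of all genes was -0.0022.

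**Figure D3:**
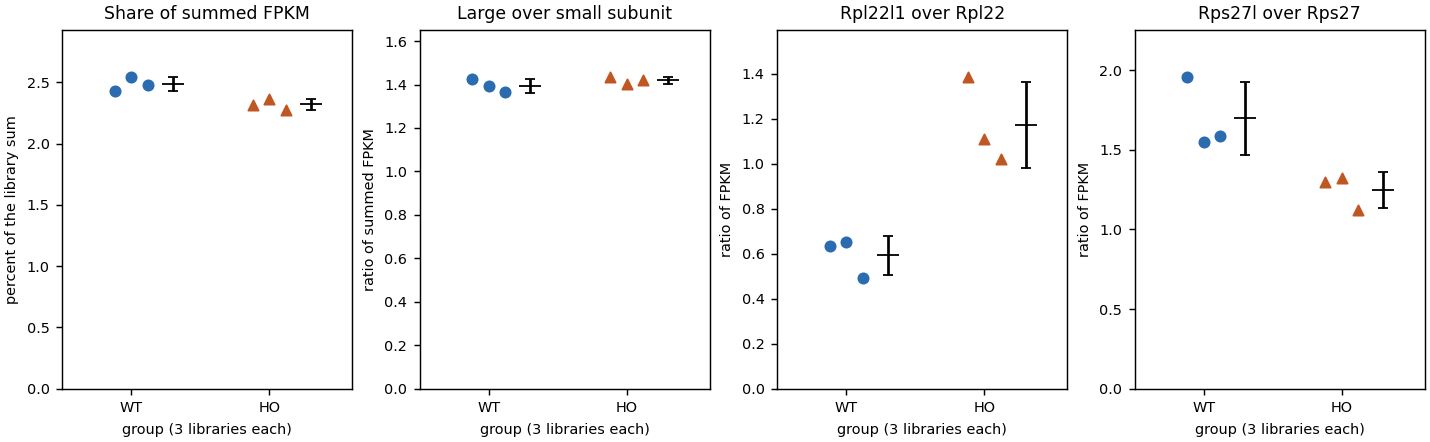
Share of summed FPKM, ratio of Rpl to Rps sums, and the ratios Rpl22l1 to Rpl22 and Rps27l to Rps27, with a point for each library and a bar for the mean and SD of 3. The shares and both gene ratios separate WT from HO, while the ratio of Rpl to Rps sums overlaps.

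Rpl22l1, a paralogue that can take the place of Rpl22 in the large subunit, was the gene that passed. Its gene lies at chr3:28805436-28807424 on the plus strand (GRCm38). It measured 23.6, 24.9 and 20.1 FPKM in WT and 35.0, 35.5 and 36.1 FPKM in HO. Every HO library was above every WT library. The means were 22.9 ± 2.51 and 35.5 ± 0.522 FPKM (SD, n = 3 each), a 1.55-fold rise with a log2 difference of 0.63 (SE 0.10, 95% interval 0.39 to 0.87, limma adjusted p = 0.0454). This call is close to its threshold: limma's adjusted p ran from 0.0268 to 0.149 over the alternatives, and it was lost in 5 of the 6 fits that leave out 1 library, at 0.149 without WT 1, 0.121 without WT 2, 0.0603 without HO 1, 0.117 without HO 2 and 0.121 without HO 3. The call was also lost with a near-identical copy added to the gene (0.0507), with a pseudocount of 0.1 (0.0504), without the filter (0.0712), without limma's trend (0.0715) and with the replicate block (0.0897). The antisense gene Gm33051 overlaps 8.0% of its exonic length, and whether reads were assigned by strand was not stated.

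Rpl22, the parent gene, whose protein in mouse is known to repress its paralogue, lay the other way. It measured 37.1, 38.3 and 40.8 FPKM in WT and 25.3, 32 and 35.4 FPKM in HO. The HO libraries were all below the WT libraries, but the log2 difference of -0.33 (SE 0.13) did not pass (limma adjusted p = 0.205). Rpl22l1 over Rpl22 was 0.636, 0.650 and 0.493 in WT and 1.39, 1.11 and 1.02 in HO. The paralogue was thus below its parent in all 3 WT libraries and above it in all 3 HO libraries, in FPKM, which is per length.

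The other expressed paralogues did not pass. Rps27l, a paralogue of Rps27 and a known p53 target, measured 288, 288 and 245 FPKM in WT and 211, 202 and 187 FPKM in HO. Its groups did not overlap, with a log2 difference of -0.45 (SE 0.10, limma adjusted p = 0.0766). Rps27, a zinc-finger protein of the small subunit, measured 147, 186 and 155 against 162, 153 and 167 FPKM, and Rps27l over Rps27 was 1.96, 1.55 and 1.58 in WT and 1.298, 1.32 and 1.12 in HO. Rpl36al, which differs little from Rpl36a, measured 125, 137 and 126 FPKM in WT and 109, 107 and 104 FPKM in HO (log2 difference -0.27, limma adjusted p = 0.114). Its ratio to Rpl36a was 1.36, 1.38 and 1.44 in WT and 1.25, 1.18 and 1.16 in HO. These 3 ratios separated the genotypes, and each was computed after the genes' own values were seen. Rpl7l1 over Rpl7, of the same kind, overlapped at 0.0967, 0.110 and 0.145 in WT and 0.107, 0.134 and 0.170 in HO. Among the non-subunits, Rps19bp1, a nucleolar protein that binds Rps19, measured 14.8, 15.2 and 14.1 against 9.83, 11.2 and 10.4 FPKM (log2 difference -0.47, limma adjusted p = 0.0647). Rpl7l1, a factor of large-subunit assembly, had overlapping groups and a log2 difference of 0.11. Of the pseudogene-named members, Rpl10-ps3 had a log2 difference of -0.33 (limma adjusted p = 0.194), and its coding sequence is identical to that of Rpl10, so its reads are uncertain.

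**Figure D4:**
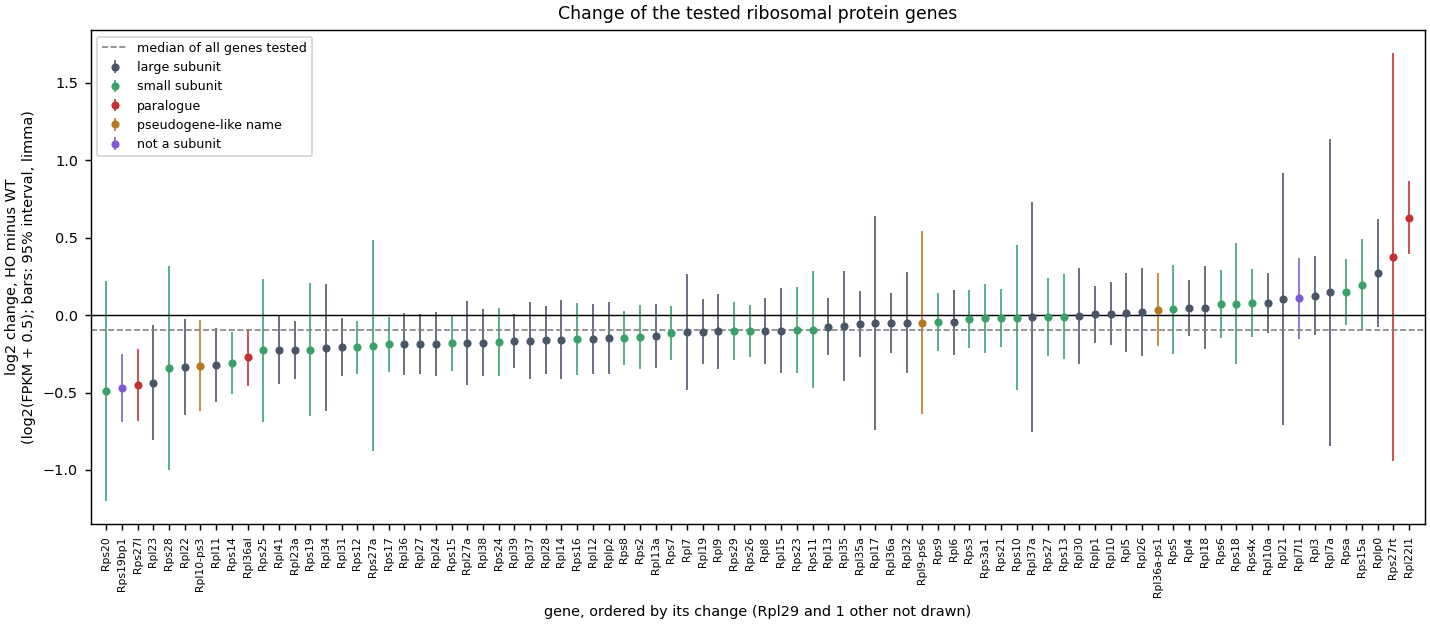
Log2 difference of HO from WT with its 95% interval from limma for each tested member except Rpl29 and 1 other, ordered by the difference, with a solid line at 0 and a dashed line at the median of all genes (-0.09). Rps20 lies lowest at -0.49, Rpl22l1 highest at 0.63, and Rps27rt, from -0.94 to 1.69, has the widest interval drawn.

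In the large subunit, 0 of 46 genes passed limma's adjusted threshold. At an unadjusted p under 0.05, 1 of the 46 was higher and 6 were lower. Both are smaller shares than among all genes, where 5.01% were higher and 16.5% lower. Rpl11 and Rpl5 travel with 5S rRNA and, when free of the ribosome, bind the p53 regulator Mdm2. Rpl11 measured 221, 229.9 and 219 FPKM in WT and 195, 156 and 187 FPKM in HO (log2 difference -0.32, limma adjusted p = 0.138). Rpl5 measured 75.9, 91.2 and 86.2 FPKM in WT and 84.1, 94.4 and 77.7 FPKM in HO (0.02, limma adjusted p = 0.953). The groups separated for Rpl11 and overlapped for Rpl5. In the stalk, Rplp0 measured 186, 186 and 253 against 269, 219 and 263 FPKM, Rplp1 428, 443 and 417 against 453, 419 and 420.0 FPKM, and Rplp2 127, 134 and 108 against 109.8, 111 and 109.9 FPKM. All 3 stalk genes overlapped between genotypes, with log2 differences of 0.27, 0.00 and -0.15. Rpl23 measured 93.5, 114 and 144 FPKM in WT and 89.5, 87.5 and 78.8 FPKM in HO (-0.44, limma adjusted p = 0.176). Rpl41 measured 446, 493 and 472 FPKM in WT and 440.3, 385 and 384 FPKM in HO (-0.22, limma adjusted p = 0.221). Both were lower in every HO library, with narrow gaps of 93.5 against 89.5 FPKM for Rpl23 and 446 against 440.3 FPKM for Rpl41. Rpl26, at the exit tunnel, had a log2 difference of 0.02. Of 9 exit tunnel genes, 7 had negative values (77.8%, against 64.6% of all genes), with a median of -0.11, against -0.09.

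The small subunit also had 0 of 31 genes past limma's adjusted threshold. At an unadjusted p under 0.05, 0 were higher (against 5.01% of all genes) and 4 lower (12.9%, against 16.5%). Rps6, the substrate of S6 kinase, measured 134, 134 and 152 FPKM in WT and 141, 158 and 142 FPKM in HO (log2 difference 0.07, limma adjusted p = 0.697). Rps2 and Rps3, which line the channel where messenger RNA enters, had log2 differences of -0.14 and -0.02, the latter changing sign with the scaling. Rpsa, also known as the laminin receptor, measured 148, 169.5 and 167 against 168, 185 and 184 FPKM (0.15, limma adjusted p = 0.384). These groups overlapped. Rps14, named after its values were seen, measured 261, 274 and 245 FPKM in WT and 210.4, 220.4 and 198 FPKM in HO (-0.31, limma adjusted p = 0.108), with no overlap. Rps15 (-0.18), Rps29 (-0.10) and Rps15a (0.20) did not pass. Rps20 had the lowest log2 difference of all the tested members (-0.49), from 29.5, 40.1 and 34.8 FPKM in WT and 32.7, 30.8 and 14.4 FPKM in HO. Without HO 3 the value was -0.12. Diamond-Blackfan anaemia is the inherited red-cell failure caused by loss of 1 copy of a ribosomal protein gene. Over 9 genes mutated in it, 0 passed and 8 were negative (88.9%, against 64.6% of all genes). At an unadjusted p under 0.05, 2 were lower (22.2%, against 16.5%), and the median was -0.11, against -0.09.

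A few members had levels that differed widely between libraries of 1 genotype, and each of these has near-identical copies elsewhere, as do most members. The SD of log2 values within groups had a median of 0.114 over the 86 genes but exceeded 0.4 in 9: Rpl29, Rps27rt, Rpl7a, Rpl21, Rpl37a, Rps20, Rpl17, Rps27a and Rps28. Rpl29 measured 0.631, 44.4 and 0.22 FPKM in WT and 63.7, 0.323 and 34.2 FPKM in HO. It was near 0 in WT 1, WT 3 and HO 2 and abundant in the other 3 libraries, and its log2 difference of 1.88 was smaller than its SE of 2.04 (limma adjusted p = 0.634). Rpl7a, with 0.15, and Rps28, with -0.34, had SEs of 0.42 and 0.28. A copy was defined as a transcript at least 95% identical over at least 90% of the coding sequence; 76 of the 89 members had one annotated, and all 9 unstable members had one in the table. When the FPKM of copies were added, the SD was smaller in all 9, but also in 63 of the 73 tested members with copies in the table and in 41 of the 57 with an SD under 0.15. Adding other FPKM to a gene can itself lower the SD: for Rps27rt, which went from 0.908 to 0.049, the copies made up 87.8% of the sum.

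In single libraries a gene and its copy could take opposite levels. Rps27rt measured 27.2, 6.34 and 30.2 FPKM in WT and 21.6, 31.7 and 17.3 FPKM in HO, while Rps27 and Rps27rt together gave 175, 192 and 185 against 184, 185 and 184 FPKM. Rpl37a measured 219.7, 233 and 102 FPKM in WT and 173, 143 and 206 FPKM in HO. Its processed pseudogene Gm4149, on chromosome 13 and 99.6% identical, was high where Rpl37a was low, at 12.4, 26.1 and 171 against 131, 153 and 10.7 FPKM. Copy number alone did not order the genes by spread (Spearman's rho 0.179 across 86 genes). The 73 members with copies in the table had a median SD of 0.115, and the 13 without had 0.0961. Of the copies with a mean of at least 5 FPKM, 1 passed the test. Of all tested genes, 0.325% were called higher and 0.815% lower. The copy, named after its values were seen, was BC004004, a protein-coding copy of Rpl21 on chromosome 17, 98.5% identical. BC004004 fell from 37.0, 47.1 and 39.1 FPKM in WT to 26.3, 25.5 and 24.8 FPKM in HO (log2 difference -0.67, limma adjusted p = 0.0469). Rpl21 itself, with 30 copies in the table, measured 117, 64.4 and 52.8 against 52.4, 97.3 and 96.8 FPKM, and how reads were divided between the 2 genes was not stated.

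**Figure D5:**
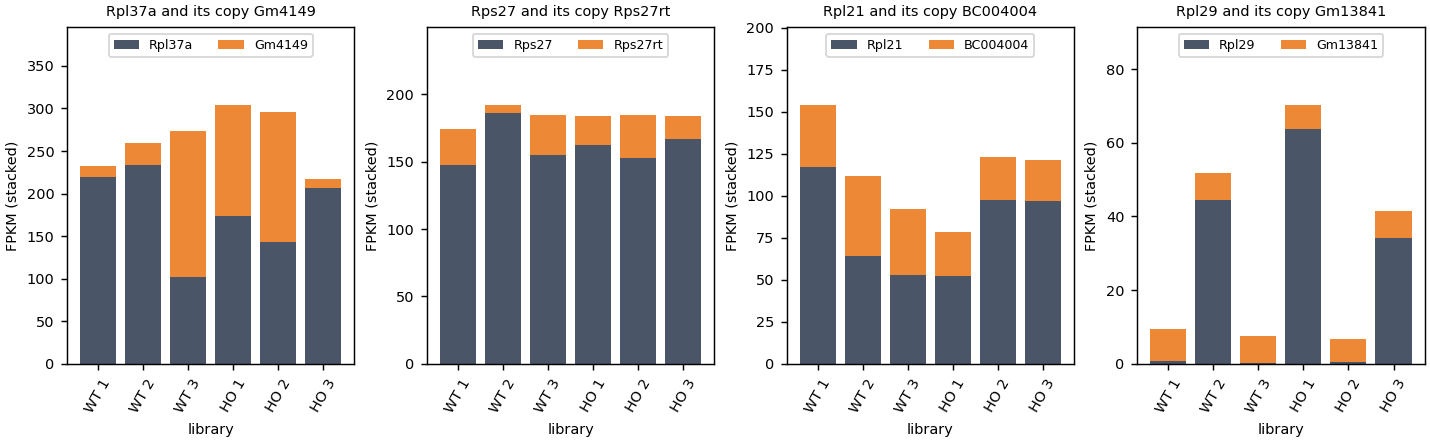
Stacked FPKM of 4 members and 1 near-identical copy of each in the 6 libraries, the lower segment being the first gene named. Gm4149 is high where Rpl37a is low, Rps27 and Rps27rt sum to 175 to 192 FPKM, and Gm13841 stays at 6.47 to 8.89 FPKM while Rpl29 runs from 0.22 to 63.7 FPKM.

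None of the cytosolic pathway lists had a gene past the threshold (limma). Among further subunit genes whose names the rule does not match, Fau, which encodes Rps30 fused to a ubiquitin-like protein, measured 171, 192 and 174 FPKM in WT and 147, 141 and 149 FPKM in HO (log2 difference -0.30, limma adjusted p = 0.109). Rack1, a scaffold on the small subunit, had 0.06. In the lists of 7 elongation factors, 29 initiation factors, 18 other TOP messengers, 15 genes of RNA polymerase I, 9 ribosomal protein chaperones, 10 genes of the Myc and MAX network and 6 of the p53 response to free ribosomal proteins, 0 passed in either direction, with medians of 0.13, -0.03, -0.05, -0.02, -0.14, 0.21 and -0.28. At an unadjusted p under 0.05, the lower genes in these lists were 1, 0, 1, 1, 0, 0 and 2, and the higher ones 0, 1, 1, 0, 0, 1 and 0. The shares of all genes were 16.5% lower and 5.01% higher. The nearest was Eef1d, an exchange factor for elongation factor 1, at 55.9, 61.6 and 65.7 FPKM in WT and 45.7, 37.1 and 40.9 FPKM in HO (-0.56, limma adjusted p = 0.0612). Assembly factors had 0 past the threshold of 41 for the small and 49 for the large subunit. Of these, 28 and 36 were positive, and 31.7% and 26.5% were negative, against 64.6% of all genes. Their medians were 0.11 and 0.09, where the ribosomal proteins had -0.10 and all tested genes -0.09. At an unadjusted p under 0.05, 2 were higher and 2 lower in the first list (4.88% each). In the second list 0 were higher and 2 lower (4.08%). Of all genes 5.01% were higher and 16.5% lower. Sbds, which releases an anti-association factor from the large subunit, had -0.38 (limma adjusted p = 0.0932), and Utp4, of the small-subunit processome, 0.45 (limma adjusted p = 0.125). Of 26 tested genes of mTORC1 and its TOP effectors 0 passed, 22 were negative (84.6%, against 64.6% of all genes), 7 were lower at an unadjusted p under 0.05 (26.9%, against 16.5%) and the median was -0.14. The nearest were Akt1s1, an mTORC1 inhibitor (-0.45, limma adjusted p = 0.0703), and Lamtor4, of the complex that holds mTORC1 at lysosomes (-0.44, limma adjusted p = 0.0828). Mdm2, which ubiquitinates p53, had -0.53 (limma adjusted p = 0.116). The 77 mitochondrial ribosomal protein genes, made for a separate ribosome, had a median of -0.17, and 85.7% were negative, against 64.6% of all genes. At an unadjusted p under 0.05, 25 were lower (32.5%, against 16.5%), and in 30 all HO libraries lay below WT (39.0%, against 21.4%). At the adjusted threshold 1 was higher and 1 lower, where 0.325% and 0.815% of all genes were. Among them Mrps21 rose from 16.2 ± 1.03 to 39.7 ± 0.426 FPKM and Mrps14 fell from 16.9 ± 1.88 to 8.73 ± 0.751 FPKM (SD, n = 3 each; limma adjusted p = 0.00721 and 0.0284).

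Marker sums of some other cells separated the genotypes, and those of the rest overlapped. The 6 erythroid markers summed to 667, 644 and 662 FPKM in WT and 548, 365 and 319 FPKM in HO, and stellate cell markers to 109, 95.7 and 84.7 against 73.6, 64.8 and 58.1 FPKM. Cholangiocyte markers summed to 24.6, 24.2 and 27.6 against 22.96, 22.02 and 20.05 FPKM. These 3 sums, like that of the hepatocyte markers, were lower in every HO library. A sum follows its most abundant gene, which averaged 61.7 FPKM in the stellate list and 19.8 FPKM in the cholangiocyte list. Gene by gene, 4 of 5 tested erythroid, 6 of 7 stellate and 3 of 4 cholangiocyte markers were negative, against 64.6% of all genes. In each of these lists 1 was positive. Kupffer cell markers summed to 207, 123 and 131 against 125, 107 and 132 FPKM, which overlap. All 10 had negative values, with a median of -0.31. At an unadjusted p under 0.05, 2 of the 10 were lower (20.0%, against 16.5% of all genes). Of the 6 hepatocyte markers, 4 were negative and 2 positive, with a median of -0.05, and the most abundant averaged 30198 FPKM. Cps1 of the urea cycle rose (log2 difference 0.86, limma adjusted p = 0.0422), and 1 marker was lower at an unadjusted p under 0.05. Of 5 tested erythroid markers, 4 were lower at an unadjusted p under 0.05 and 0 passed the adjusted threshold. At the same unadjusted p, 4 of 7 stellate and 1 of 4 cholangiocyte markers were lower, against 16.5% of all genes. The part of these markers in the difference in the ribosomal proteins' share was not tested. Endothelial marker sums overlapped, at 41.5, 50.6 and 44.4 against 38.7, 43.9 and 43.8 FPKM, and 5 of the 6 markers were negative. Neutrophil sums, at 2.32, 1.87 and 4.64 against 2.98, 6.87 and 8.05 FPKM, overlapped too. So did the sums of lymphocyte markers, 3.13 to 4.63 FPKM, and of skeletal muscle markers, all under 1 FPKM. Rps23, the only member on chromosome 13, lies 6.51 Mb from Lncenc1 and measured 143, 128 and 129 against 146, 116 and 113 FPKM, with overlapping groups.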

How the data were processed

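Liver RNA libraries (3 WT, 3 HO) were made with a directional kit, per the labels' protocols. The deposited values are FPKM that the authors computed; HISAT2, HTSeq, DESeq2 and StringTie and the build mm10 are named in the submitters' processing notes without roles, and neither the tool behind the FPKM nor any strand setting is stated there. Depth was estimated from the steps between low FPKM values at 19100000 to 24600000 read equivalents a library. The median member had 4111 to 5177 read equivalents. Genes with a mean of at least 0.5 FPKM (13250 of 24034) were tested with limma 3.58.1 in R 4.3.3 on log2(FPKM + 0.5), with trend, two-sided, Benjamini-Hochberg adjustment over all tested genes and a threshold of 0.05. The log2 differences are on that scale, which understates low genes. Copies were found with BLAST 2.17.0 in GENCODE M21 transcripts, where all 24034 IDs matched. The members and lists were chosen with earlier results of these data known. Members named were those past the threshold, the 8 with the largest difference in each direction, the 5 highest, the paralogues and non-subunits, and named functional subsets; of each related list, the 2 genes of smallest p. Alternatives changed the pseudocount, filter, scaling, trend, weights and libraries, and added copies or left out unstable members after the data were seen. Values of some genes that this rule names are not reported here. The main fits did not pair libraries by replicate number, and whether the numbers mark pairs could not be told. Self-tests used simulated data.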

Additional observations from a re-analysis of the deposited data

How the results depend on the processing

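Of 476 recomputed values (28 named members under 17 alternatives), 438 kept their side of the threshold and size. Another 13 changed sign, all in members past no threshold. Only Rpl22l1 was past the threshold in the main fit, so keeping their side says little about the others. Rpl22l1 itself lost its call in several alternatives, as given above. Members higher in HO, 1 as reported, were 0 with a pseudocount of 0.1, without a filter, without the trend, with copies added, in subunits only and with the replicate block, 2 with array weights (Rpl22l1 among them), and 0 to 1 when a library was left out. Members lower in HO were 3 with array weights (Rps27l, Rps19bp1 and Rps14) and 0 otherwise. With the replicate block, limma's adjusted p of Rpl22l1 was 0.0897. Deviations from the group means correlated at 0.066, -0.028 and 0.015 in same-numbered libraries, and at -0.126 to 0.128 in the other pairs. Being centred within 3 libraries, such values cannot show whether the numbers pair libraries. With array weights the members' median was -0.139, under median-of-ratios scaling 0.0021, after quantile normalization -0.0195, and -0.123 to -0.0548 with a library left out. Their share of summed FPKM differed by -0.247 percentage points without the 10 most abundant genes. Rps3 reversed to 0.0782 under median-of-ratios scaling and 0.0746 after quantile normalization. Leaving out a library put Rps27rt at -0.3226 (without WT replicate 2) to 0.7606 and Rpl7a at -0.3018 (without HO replicate 2) to 0.4644. The cause was not tested. Over all genes, 43 higher and 108 lower calls became 67 and 66 under median-of-ratios scaling, 249 and 692 with array weights, 10 and 15 with the replicate block, 7 and 33 without a filter, and, when a library was left out, from 2 and 4 (without WT replicate 2) to 91 and 168 (without WT replicate 3). With 3 libraries a group, exact tests cannot go below 0.1.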
